A study of Rattus norvegicus with 9 samples.

Results

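The ubiquitin E1 and E2 enzymes were followed in the tibialis anterior muscle (TIB) of fed and fasted rats, as 36 genes of the family given by name, of which 31 were measured. A gene was counted as measured when a probe set of the array carried its symbol and no other. All 5 listed E1 enzymes and 26 of the 31 listed E2 enzymes met this, out of 14508 genes and 29215 probe sets in the whole table. Ube2h, Ube2o, Ube2q2 and Ube2r2 had no probe set with their symbol, Ube2m had only one that it shares with another symbol, and these 5 were not analysed here. Where several probe sets carried a symbol, as for Uba2 with 2 and Ube2n with 3, the one with the highest mean over the arrays was used.

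Attachment of ubiquitin to a protein takes a chain of enzymes. An E1 enzyme activates ubiquitin with ATP and passes it to an E2 enzyme, which transfers it to the substrate with the help of an E3 ligase, and the E2 often decides whether a chain is built and through which lysine. Related E1 and E2 enzymes handle the ubiquitin-like modifiers SUMO, NEDD8 and ISG15. In wasting muscle the pathway is best known for the E3 ligases Fbxo32 (atrogin-1) and Trim63 (MuRF1) and for the 26S proteasome, which degrades proteins tagged with ubiquitin.

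TIB was taken from 9 male Sprague Dawley rats, bought at 10 weeks of age and kept on a standard diet until the experiment, with 3 rats in each of 3 groups. The Fed rats had a full stomach when sampled, the P2 rats were fasted into phase 2, when body protein is spared, and the P3 rats into phase 3, when its loss accelerates, and were sampled the day after that phase began. The phases were told from the daily rate of body mass loss, and all rats had free access to water. RNA of the whole muscle of each rat was read on 1 Affymetrix Rat Gene 1.0 ST array, so that fewer cells of a type and less RNA per cell cannot be told apart. The values are the deposited log2 intensities, and group means are given with their SD over 3 rats. Group differences are log2 fold changes with their standard error after the ± sign, from limma fitted to all 9 arrays, and a call is an adjusted p under 0.05 (Benjamini-Hochberg over the 29215 probe sets). A level of one probe set says nothing against that of another, so that only changes are compared between genes.

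Array medians lay between 5.80 and 5.90, and arrays of a group correlated at 0.987 to 0.994 across probe sets. The labelled muscle was checked with 7 measured markers of fast fibres, which had Fed means between 12.82 (Tnni2) and 13.97 (Acta1), and of which Tnni2 alone was called, lower in P3 than in Fed. Of the 7 log2 fold changes in P3 against Fed, 6 were negative. The summed intensity of these markers was 80761 to 82478 in Fed, 79081 to 81746 in P2 and 73651 to 75082 in P3, so that the P3 sums lay below all others. Markers of other cells moved too. In P3 against Fed, 5 of 7 fibro-adipogenic markers fell, among them the 3 collagen genes, and none rose, with a summed intensity of 15176 to 16903 in Fed, 6506 to 12264 in P2 and 4311 to 6797 in P3. Of 4 erythroid markers 2 fell in both phases, with sums of 659 to 744 in Fed, 192 to 245 in P2 and 183 to 229 in P3. Of 6 adipocyte markers 3 rose in P2 and 1 fell in P3, with sums of 979 to 1060 in Fed, 1687 to 1882 in P2 and 685 to 915 in P3. In P3 against Fed, 1 of 9 macrophage markers rose and 1 fell, 1 of 6 endothelial markers rose and no lymphocyte marker of 6 was called. The sums of these 3 lists overlapped between P3 and Fed, with 932 to 1629 and 921 to 1476 for macrophages, 2752 to 4568 and 2725 to 2873 for endothelium and 214 to 261 and 249 to 306 for lymphocytes. No marker of any list is at 0 on this log2 scale, and the part of other cells in the changes below was not tested.

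Fasting moved the E1 and E2 enzymes in both directions. In P3 against Fed, 8 of the 31 measured enzymes rose, all of them E2 enzymes, 11 fell, among them 2 of the 5 E1 enzymes, and 12 were not called. The most raised were Ube2j1 (2.94-fold) and Ube2g2 (2.66-fold), both E2 enzymes of the endoplasmic reticulum, and the most lowered were Ube2e3 (2.26-fold) and Ube2d1 (2.15-fold). Of all probe sets 29.2% were called in this comparison, 15.8% higher and 13.4% lower, and of genes with 1 probe set each 35.3%, 18.3% higher and 17.1% lower. The members stood at 25.8% higher and 35.5% lower, with a median log2 fold change of −0.15, against −0.01 over all genes and 0.00 over all probe sets. The values of the P3 and Fed rats did not overlap for 26 of the 31, against 42.4% of all probe sets and 48.4% of genes.

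In P2 against Fed, 4 enzymes rose (Ube2g2, Ube2j1, Ube2g1 and Ube2q1) and 3 fell (Ube2n, Uba7 and Ube2f), where 5.13% of all probe sets and 7.08% of genes were higher and 4.15% and 5.57% were lower, together 9.28% and 12.6%. Their median log2 fold change was −0.06, against 0.01 over all genes. P2 and Fed values did not overlap for 16 of the 31, against 24.2% of all probe sets and 29.0% of genes. This count of calls was the least steady. It was 4 without Fed 1, 3 without Fed 3 or P3 3, 2 without Fed 2, P2 2 or P2 3, and 3 when only the P2 and Fed arrays were fitted. Ube2g2 and Ube2j1 kept their call with any rat left out. In P3 against P2, 5 enzymes rose (Ube2j1, Ube2g2, Ube2f, Ube2z and Ube2l3) and 4 fell (Ube2d1, Ube2e3, Uba2 and Uba7), where 8.50% of all probe sets and 11.4% of genes were higher and 7.52% and 10.4% were lower, together 16.0% and 21.8%. P3 and P2 values did not overlap for 20 of the 31, against 27.4% of all probe sets and 34.2% of genes. Across the 3 groups, 18 of the 31 passed the moderated F test, which 26.2% of all probe sets and 33.1% of genes passed, and the count was 10 without Fed 2 and 11 without Fed 3 or P3 2.

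**Figure D1:**
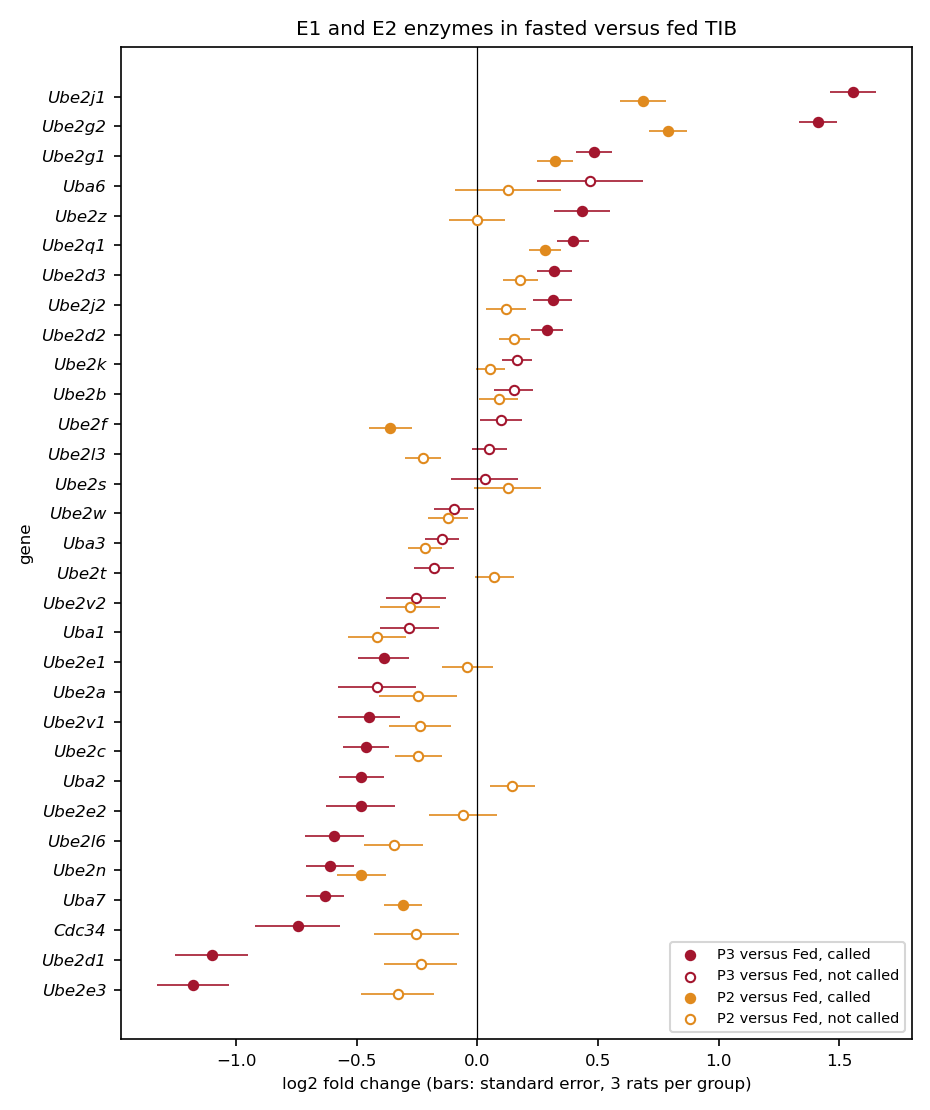
Log2 fold changes of the 31 measured E1 and E2 enzymes (rows) for P3 and for P2, each versus Fed, with standard errors as bars and called differences as filled points. The P3 changes run from −1.18 for Ube2e3 to 1.56 for Ube2j1, and most P2 changes lie closer to 0.

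Ube2g2 and Ube2j1 are among the E2 enzymes of endoplasmic reticulum-associated degradation, in which misfolded proteins are drawn out of the membrane, tagged and passed to the proteasome. Ube2g2 (probe set 10832287) had log2 values of 8.63, 8.76 and 8.71 in the Fed rats, 9.57, 9.35 and 9.55 in the P2 rats and 10.14, 10.12 and 10.08 in the P3 rats. The 3 groups did not overlap, and all rats of a later stage lay above those of the one before. The log2 fold change was 0.79 ± 0.08 in P2 against Fed (adjusted p = 0.000617), 1.41 ± 0.08 in P3 against Fed (adjusted p = 2.69e-06) and 0.62 ± 0.08 in P3 against P2 (adjusted p = 0.000755).

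Ube2j1 (probe set 10868134), which is anchored in the membrane of the reticulum, had 8.71, 8.52 and 8.73 in the Fed rats, 9.45, 9.29 and 9.29 in the P2 rats and 10.06, 10.29 and 10.29 in the P3 rats. Here too the groups stood in steps with no overlap. It was higher by 0.69 ± 0.09 in P2 than in Fed (adjusted p = 0.00283), by 1.56 ± 0.09 in P3 than in Fed (adjusted p = 4.33e-06) and by 0.87 ± 0.09 in P3 than in P2 (adjusted p = 0.000326). The related enzymes of both moved less. Ube2j2, the second membrane-anchored E2, was higher by 0.31 ± 0.08 in P3 than in Fed (adjusted p = 0.0190), a call that was lost without Fed 1, Fed 2, P3 1 or P3 2 (adjusted p of 0.0509 to 0.0682) and with one more quantile normalization (0.0964). Ube2g1, which extends chains through Lys48, rose by 0.48 ± 0.08 in P3 against Fed (adjusted p = 0.00114) and by 0.32 ± 0.08 in P2 against Fed (adjusted p = 0.0307). The P2 call of Ube2g1 was lost without Fed 2, Fed 3, P2 2, P2 3 or P3 3 (adjusted p of 0.0517 to 0.107). Syvn1 (Hrd1), an E3 ligase of this route, was higher by 0.35 ± 0.07 in P3 than in Fed (adjusted p = 0.00408).

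The promoters of both most raised and both most lowered enzymes are shown because the 4 are the members whose levels changed at least 2-fold. RefSeq windows (build GRCr8) reached from 250 bases before to 50 after the gene start, and 27 of the 31 measured members matched one by symbol, while Ube2c, Ube2e1, Ube2v2 and Ube2w did not. The 250 bases before the start are printed 5′ to 3′ on the strand of the gene, with matches to TGACNNNGC, the core of the antioxidant response element, on either strand in capitals. The windows lie at chr20:11005061-11005310 (minus strand) for Ube2g2, chr5:52218557-52218806 (plus strand) for Ube2j1, chr20:17308209-17308458 (plus strand) for Ube2d1 and chr3:84193996-84194245 (plus strand) for Ube2e3.
Ube2g2: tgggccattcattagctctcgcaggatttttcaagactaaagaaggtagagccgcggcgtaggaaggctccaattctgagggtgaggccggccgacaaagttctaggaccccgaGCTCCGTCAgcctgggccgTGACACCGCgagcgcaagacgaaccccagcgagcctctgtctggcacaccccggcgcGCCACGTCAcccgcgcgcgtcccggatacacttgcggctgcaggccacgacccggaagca
Ube2j1: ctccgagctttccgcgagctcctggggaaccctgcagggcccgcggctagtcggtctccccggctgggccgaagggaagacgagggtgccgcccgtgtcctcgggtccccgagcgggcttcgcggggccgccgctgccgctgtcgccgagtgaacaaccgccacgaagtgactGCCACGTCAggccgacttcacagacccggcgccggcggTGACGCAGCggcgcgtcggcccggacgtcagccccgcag
Ube2d1: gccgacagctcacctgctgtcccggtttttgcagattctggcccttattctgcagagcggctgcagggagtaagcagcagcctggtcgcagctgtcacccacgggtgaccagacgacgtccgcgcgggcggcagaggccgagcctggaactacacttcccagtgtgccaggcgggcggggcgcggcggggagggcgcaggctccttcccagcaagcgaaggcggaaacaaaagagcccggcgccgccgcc
Ube2e3: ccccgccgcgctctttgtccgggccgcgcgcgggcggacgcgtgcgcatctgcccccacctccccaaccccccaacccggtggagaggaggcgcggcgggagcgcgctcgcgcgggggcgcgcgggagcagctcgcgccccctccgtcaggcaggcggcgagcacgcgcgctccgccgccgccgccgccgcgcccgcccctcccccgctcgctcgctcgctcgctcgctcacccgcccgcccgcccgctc

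Of the windows of members 33.3% (9 of 27) held TGACNNNGC, against 12.2% of all 27457 promoters, and they were 3 of the 8 windows of members higher in P3 and 4 of the 9 of members lower in P3. Ube2g2 had 3 matches, a number that 0.0437% of promoters reach, and Ube2j1 had 2, which 0.918% reach. The search was planned for presence alone. These numbers of matches were added to it, are given for enzymes picked by their change, and were not tested. In Ube2e3 the match begins at base 10 after the start and is not printed, and Ube2d1 has none. In both Ube2g2 (from base −60) and Ube2j1 (from base −77) 1 match reads GCCACGTCA, which also holds, on the other strand, TGACGTGG, the core of the unfolded protein response element. That motif was looked for only after the windows had been seen, occurs in no other of the 27 windows and in 0.637% of all promoters, and shares 8 bases with TGACNNNGC there. The member windows were richer in G and C, with a median of 64.7% against 52.3% over all promoters, and with 67.3% in Ube2g2 and 77% in Ube2j1. The shares of all promoters given here are not matched for this content.

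The same 27 windows were searched for motifs of other factors, each given with its share of all promoters, beside which counts this small are not a result about the members. TGTTTAC, bound by FOXO factors, was in none of the 27 (3.76% of all promoters), and the full glucocorticoid response element, AGAACA followed after 3 free bases by its reverse complement, was in none either (0.00728%). AGAACA alone was in 2, Ube2a and Ube2l6 (20.1%). The E-box CACGTG was in Ube2q1 (6.65%), the palindromic motif of the factor NRF1 in Ube2k (0.932%) and the interferon-stimulated response element, TTTC followed after 2 free bases by TTTC, in Ube2d3 (3.77%). All were searched on both strands. A match describes the letters in the window, and binding was not measured.

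The Ube2d enzymes, which start chains with a wide range of E3 ligases, parted ways. Ube2d1 (probe set 10829694) had 10.73, 10.67 and 10.63 in the Fed rats, 10.79, 10.11 and 10.43 in the P2 rats and 9.44, 9.65 and 9.63 in the P3 rats. The P3 rats lay below all others, while P2 1 stood above the Fed rats and P2 2 and P2 3 below them. The log2 fold change was −1.10 ± 0.15 in P3 against Fed (adjusted p = 0.000535), −0.87 ± 0.15 in P3 against P2 (adjusted p = 0.00426) and −0.23 ± 0.15 in P2 against Fed (adjusted p = 0.433). Ube2d2 and Ube2d3, by contrast, rose in P3 against Fed, by 0.29 ± 0.07 (adjusted p = 0.00921) and 0.32 ± 0.07 (adjusted p = 0.00868), and their P3 and Fed values did not overlap. Within each rat, Ube2d1 minus Ube2d2 differed by −1.39 ± 0.06 between P3 and Fed, and Ube2d1 minus Ube2d3 by −1.42 ± 0.05, with no overlap of the rats. Ube2d2 minus Ube2d3 differed by −0.03 ± 0.03 between P3 and Fed, with overlapping values. Standard errors of these differences within each rat come from the P3 and Fed rats alone, without the moderation of limma. An exact two-sided permutation test of 3 rats against 3 cannot give a p below 0.10. Of the 39 tests run over 13 pairs of related enzymes and 3 comparisons, none could therefore pass, and the lowest adjusted p was 0.156.

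The 3 Ube2e enzymes, E2s with an N-terminal extension before the catalytic domain, all fell in P3 against Fed. Ube2e3 (probe set 10837128) had 7.36, 7.16 and 7.33 in the Fed rats, 7.26, 6.68 and 6.92 in the P2 rats and 6.32, 6.0 and 6.0 in the P3 rats. The P3 rats lay below all others and near the array medians of 5.80 to 5.90, and of the P2 rats 2 were below the Fed range and 1 within it. Ube2e3 differed by −1.18 ± 0.15 in P3 against Fed (adjusted p = 0.000319) and by −0.85 ± 0.15 in P3 against P2 (adjusted p = 0.00444). Against Fed, P2 stood at −0.33 ± 0.15 (adjusted p = 0.239), which without P2 1 became a call (adjusted p = 0.0478). The log2 fold changes of Ube2e1 and Ube2e2 in P3 against Fed were −0.39 ± 0.10 (adjusted p = 0.0212) and −0.48 ± 0.14 (adjusted p = 0.0299). Neither call held under every leave-out. That of Ube2e1 was lost without Fed 2, Fed 3 or P3 1 (adjusted p of 0.0622 to 0.0744), and that of Ube2e2 without any single Fed or P3 rat (adjusted p of 0.0611 to 0.0910). In P3 against P2 they stood at −0.35 ± 0.10 (adjusted p = 0.0561) and −0.43 ± 0.14 (adjusted p = 0.0806), and both became calls without P2 2 (adjusted p = 0.0481 and 0.0229), and Ube2e1 under 5 and Ube2e2 under 3 of 13 other alternatives (adjusted p of 0.0345 to 0.0486 and of 0.0492 to 0.0497). The drop of Ube2e3 exceeded that of Ube2e1 by 0.79 ± 0.20 and that of Ube2e2 by 0.69 ± 0.14, with no overlap of the differences per rat between P3 and Fed. Here too the standard errors come from the P3 and Fed rats alone.

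**Figure D2:**
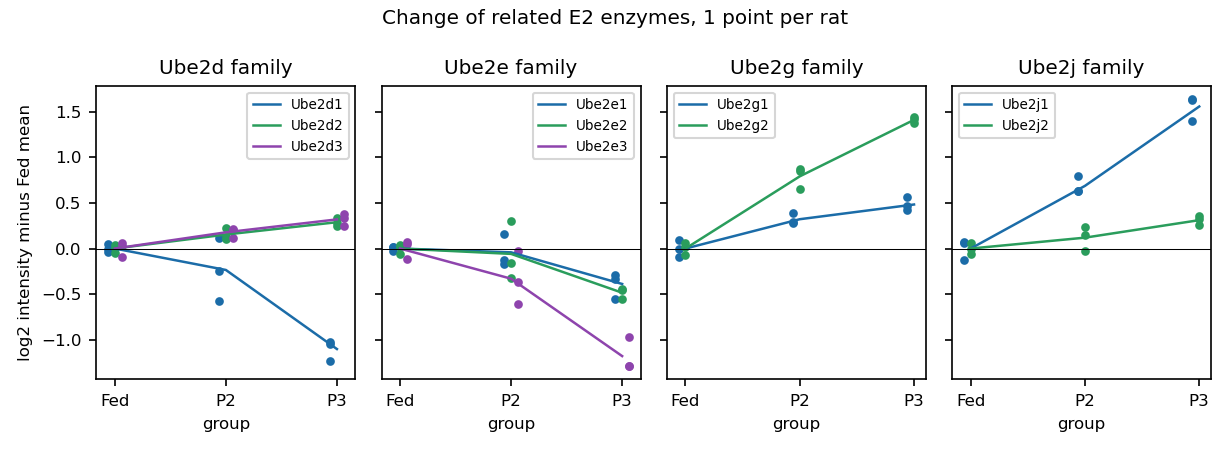
Log2 intensity of related E2 enzymes minus the mean of the Fed rats, for Fed, P2 and P3, with 1 point per rat and lines through the group means. Ube2d1 goes down while Ube2d2 and Ube2d3 go up, the 3 Ube2e enzymes go down, and Ube2g2 and Ube2j1 climb further than Ube2g1 and Ube2j2.

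Chains through Lys63 serve, among others, in signalling and DNA repair rather than mainly in degradation by the proteasome. They are built by Ube2n together with Ube2v1 or Ube2v2, which resemble E2 enzymes but lack the catalytic cysteine. Ube2n (probe set 10895027) had 9.44, 9.36 and 9.44 in the Fed rats, 9.11, 8.83 and 8.86 in the P2 rats and 8.64, 8.85 and 8.91 in the P3 rats. All fasted rats lay below all Fed rats, and the P2 and P3 rats overlapped. The log2 fold change was −0.61 ± 0.10 in P3 against Fed (adjusted p = 0.00152) and −0.48 ± 0.10 in P2 against Fed (adjusted p = 0.0190). Its other 2 probe sets gave −0.52 and −0.60 in P3, both called, and −0.45 (not called) and −0.53 (called) in P2. The P2 call was lost without any single Fed rat or without P2 2 or P2 3 (adjusted p of 0.0502 to 0.0736). Ube2v1 fell by 0.45 ± 0.13 on the log2 scale in P3 against Fed (adjusted p = 0.0270), a call that was lost without any single Fed rat or without P3 1 or P3 2 (adjusted p of 0.0530 to 0.0963). Ube2v2 stood at −0.25 ± 0.13 in P3 (adjusted p = 0.176) and at −0.28 ± 0.13 in P2 (adjusted p = 0.231) against Fed.

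Cdc34, one E2 among others of the cullin-RING ligases that carry F-box proteins such as Fbxo32, had 7.61, 8.01 and 7.94 in the Fed rats, 7.88, 7.34 and 7.58 in the P2 rats and 6.86, 7.07 and 7.39 in the P3 rats (probe set 10900821). Its P3 rats lay below all Fed rats, and the P2 rats overlapped with both. The log2 fold change was −0.74 ± 0.18 in P3 against Fed (adjusted p = 0.0114), −0.25 ± 0.18 in P2 against Fed (adjusted p = 0.476) and −0.49 ± 0.18 in P3 against P2 (adjusted p = 0.107). The call of Cdc34 in P3 against Fed held in all leave-outs (adjusted p of 0.00765 to 0.0494). It was lost with the threshold of 0.01 and under both ANOVA and Tukey tests. Ube2c and Ube2s serve the anaphase-promoting complex, Ube2c by starting and Ube2s by extending chains. Ube2c fell by 0.46 ± 0.10 on the log2 scale in P3 against Fed (adjusted p = 0.00580), and Ube2s differed by 0.03 ± 0.14 (adjusted p = 0.905). The group means of Ube2c ran from 5.89 in P3 to 6.36 in Fed, near the array medians of 5.80 to 5.90. Ube2t, which works in the Fanconi anaemia repair pathway, stood at −0.18 ± 0.08 in P3 against Fed (adjusted p = 0.146) and was the only member with a mean log2 value under 5. Of 8 measured markers of dividing cells 2 fell in P3 against Fed, Top2a and Bub1, and 7 log2 fold changes were negative. The summed intensities were 244 to 265 in Fed, 212 to 224 in P2 and 195 to 280 in P3. The upper P3 sum rests on Aurkb, at 6.83 in P3 2 against 4.97 in P3 1 and 4.996 in P3 3. The mean log2 value of the 8 markers was 4.83 to 4.94 in Fed, 4.63 to 4.69 in P2 and 4.55 to 4.79 in P3.

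**Figure D3:**
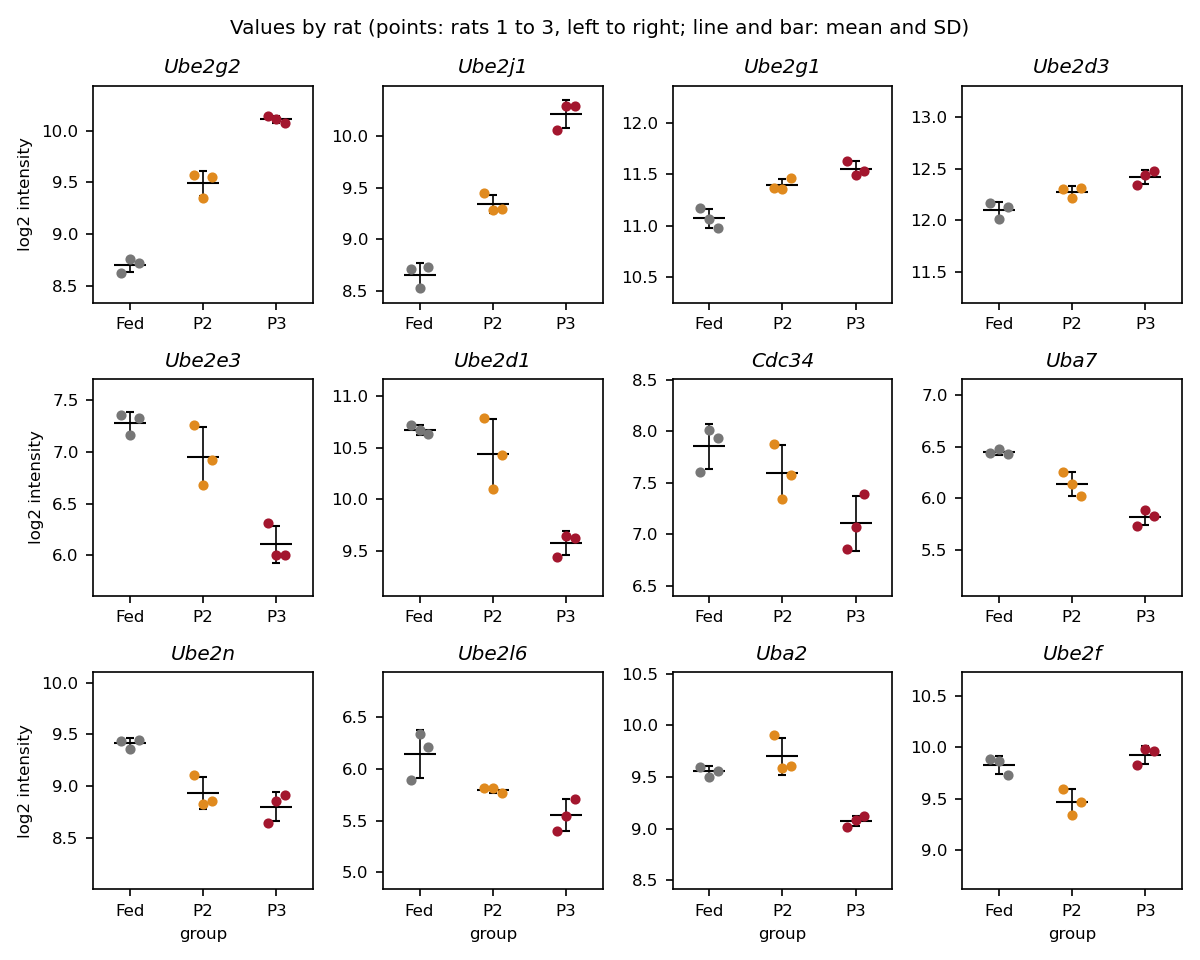
Log2 intensity of 12 E1 and E2 enzymes by group, with 1 point per rat and the group mean and SD as lines, on axes of equal span. Ube2g2 and Ube2j1 rise in 2 steps without overlap, Ube2d1, Ube2e3 and Uba2 are lowest in P3, and Ube2f is lowest in P2.

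Both listed enzymes that handle ISG15, a modifier induced by interferon, fell. Group means of Uba7, Ube2l6 and Isg15 ran from 5.30 to 6.45, near the array medians of 5.80 to 5.90. Uba7, its E1 (probe set 10913095), had 6.44, 6.47 and 6.42 in the Fed rats, 6.26, 6.13 and 6.02 in the P2 rats and 5.73, 5.88 and 5.83 in the P3 rats. The 3 groups did not overlap, and each stage lay below the one before. Uba7 differed by −0.63 ± 0.08 in P3 against Fed (adjusted p = 0.000278), by −0.31 ± 0.08 in P2 against Fed (adjusted p = 0.0419) and by −0.32 ± 0.08 in P3 against P2 (adjusted p = 0.0216). The P2 call was lost without every single rat but P2 1 and P3 1 (adjusted p of 0.0505 to 0.135), and the call of P3 against P2 without P2 1, P2 2, P3 1 or P3 3 (adjusted p of 0.0533 to 0.0753).

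Ube2l6, the E2 of ISG15 (probe set 10837342), had 5.89, 6.34 and 6.21 in the Fed rats, 5.82, 5.82 and 5.76 in the P2 rats and 5.40, 5.55 and 5.71 in the P3 rats. The P3 rats lay below all P2 and Fed rats, and the P2 rats below the Fed rats, although P2 1 and P2 2 came close to Fed 1. Its log2 fold change was −0.59 ± 0.12 in P3 against Fed (adjusted p = 0.00530) and −0.35 ± 0.12 in P2 against Fed (adjusted p = 0.129), which without Fed 1 became a call (adjusted p = 0.0362). Isg15 itself fell by 0.66 ± 0.16 on the log2 scale in P3 against Fed (adjusted p = 0.0143). Of 11 measured interferon-induced genes, Isg15 included, 4 fell and 1 rose in P3 against Fed, with a list median of −0.53. Their summed intensity was 823 to 952 in Fed, 707 to 1084 in P2 and 648 to 1033 in P3.

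Uba2 forms the E1 of SUMO with Sae1, and its P2 and P3 rats moved apart. Its mean was 9.55 ± 0.05 in Fed, 9.70 ± 0.18 in P2 and 9.07 ± 0.05 in P3, and the P3 rats lay below all others. The log2 fold change was −0.48 ± 0.09 in P3 against Fed (adjusted p = 0.00425), −0.63 ± 0.09 in P3 against P2 (adjusted p = 0.00195) and 0.15 ± 0.09 in P2 against Fed (adjusted p = 0.437). A second probe set gave −0.42 ± 0.08 in P3 against Fed (adjusted p = 0.00304). Sae1 fell likewise, by 0.48 ± 0.10 on the log2 scale in P3 against Fed (adjusted p = 0.00538). Uba3, which forms the E1 of NEDD8 with Nae1, stood at −0.15 ± 0.07 in P3 (adjusted p = 0.162) and −0.22 ± 0.07 in P2 (adjusted p = 0.102) against Fed.

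Ube2f, an E2 that passes NEDD8 to cullins, was the one member called in P2 against Fed and not in P3 against Fed. Its group means were 9.83 ± 0.08 in Fed, 9.47 ± 0.13 in P2 and 9.92 ± 0.08 in P3. The P2 rats lay below all others, and the P3 and Fed rats overlapped. The log2 fold change was −0.36 ± 0.09 in P2 against Fed (adjusted p = 0.0349), 0.46 ± 0.09 in P3 against P2 (adjusted p = 0.00672) and 0.10 ± 0.09 in P3 against Fed (adjusted p = 0.469). Its P2 call was lost without any single Fed rat or without P2 2, P2 3 or P3 3 (adjusted p of 0.0509 to 0.113), whereas the call of P3 against P2 held without any rat. Rnf7, the RING subunit with which Ube2f works in human cells, fell by 0.85 ± 0.18 on the log2 scale in P3 against Fed (adjusted p = 0.00631).

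Neither E1 enzyme of ubiquitin itself was called in the fit of all 9 arrays, but each became a call under some alternatives. Uba1, which charges nearly all E2 enzymes, stood at −0.28 ± 0.12 in P3 (adjusted p = 0.120) and at −0.42 ± 0.12 in P2 (adjusted p = 0.0677) against Fed, and its P2 values lay below all Fed values. Uba1 became a call, lower in P2 than in Fed, under 5 of 13 alternatives other than leave-outs (adjusted p of 0.0273 to 0.0493), among them the fit of 1 probe set per gene and array weights, and lower in P3 than in Fed under 2 (0.0368 with the replicate block and 0.0498 with one more quantile normalization). Uba6, the second ubiquitin E1, stood at 0.47 ± 0.22 in P3 against Fed (adjusted p = 0.158), which without P2 1, the lowest of all rats, became a call (adjusted p = 0.0348). Its standard error was the highest of the 31 members, whose median was 0.09. Ube2z, an E2 that takes ubiquitin from Uba6 alone, rose in P3, by 0.43 ± 0.12 against both Fed (adjusted p = 0.0206) and P2 (adjusted p = 0.0333). The call against Fed was lost without Fed 2, Fed 3, P3 1 or P3 2 (adjusted p of 0.0520 to 0.0767) and with one more quantile normalization (0.0681). The call against P2 was lost without Fed 2, P2 3 or any single P3 rat (adjusted p of 0.0558 to 0.103).

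Of the remaining E2 enzymes Ube2q1 was called in both phases. Ube2q1 rose by 0.40 ± 0.07 in P3 (adjusted p = 0.00173) and by 0.28 ± 0.07 in P2 (adjusted p = 0.0322) against Fed, of which the P2 call was lost without Fed 1, Fed 2, P2 2, P2 3 or P3 3 (adjusted p of 0.0531 to 0.0988). Ube2l3, which serves HECT and RBR ligases, stood at 0.05 ± 0.07 in P3 against Fed (adjusted p = 0.679) but rose by 0.28 ± 0.07 in P3 against P2 (adjusted p = 0.0338), a call that was lost without Fed 3, P2 1, P2 3 or any single P3 rat (adjusted p of 0.0514 to 0.0949). Ube2a and Ube2b are the counterparts of yeast Rad6, which acts on histones and in the N-end rule pathway, and Ube2b is the E2 long associated with muscle wasting in rats. Ube2a stood at −0.42 ± 0.16 in P3 against Fed (adjusted p = 0.0896), which without P2 1 became a call (adjusted p = 0.0123), as did its P2 value of −0.25 ± 0.16 against Fed (adjusted p = 0.0386). Its P3 value also became a call with array weights (adjusted p = 0.0221) and with only the P3 and Fed arrays fitted (adjusted p = 0.019). Ube2b stood at 0.15 ± 0.08 (adjusted p = 0.217), with P3 values above all Fed values, and the 95% interval of its log2 fold change was −0.03 to 0.33. Ube2k, which builds Lys48 chains, stood at 0.16 ± 0.06 (adjusted p = 0.0742), and Ube2w, which tags the N-terminus of proteins, at −0.10 ± 0.08 (adjusted p = 0.453).

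P2 values are given here relative to those of Fed and P3, beside the same for all genes where that was counted. Of the 19 called in P3 against Fed, the P2 mean was between the Fed and P3 means for 17 (89.5%), all but Ube2z and Uba2, as for 87.8% of the genes and 88.5% of the probe sets so called. P2 had covered a median share of 0.488 of the P3 change, against 0.404 over the genes called. These counts and shares use the same Fed rats for both changes and members chosen by the P3 call, and of the 12 members not called in P3 the P2 mean was between for 4 (33.3%, against 39.6% of the genes not called). Of the 8 higher in P3, 4 were also called higher in P2, against 33.5% of the genes higher in P3 (4.43% of all probe sets and 6.12% of all genes were higher in both), and of the 11 lower in P3, 2 were also lower in P2, against 30.4% of the genes lower in P3 (3.90% and 5.19% were lower in both). The P2 rats were not alike. P2 1 had the highest P2 value for all 11 members lower in P3, for 5 of the 8 higher in P3 and for 21 of the 31 measured. This was not counted over all genes, so that it is not a result about the members.

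Among the genes around these enzymes, the proteasome moved most uniformly. Of 31 measured subunits of the 26S proteasome, 16 rose in P2 and 29 in P3 against Fed and none fell, with medians of 0.35 and 1.11. Of 23 measured E3 ligases and ligase subunits that work with a member, 4 rose and none fell in P2 against Fed (median 0.11), and 11 rose and 2 fell in P3 against Fed (median 0.32). The most changed in P3 were Fbxo32 (3.10 ± 0.14), Trim63 (2.58 ± 0.13), Cul1 (1.21 ± 0.09) and Ubr4 (0.98 ± 0.09). Of 8 measured further E1 and E2 enzymes and partner subunits, 1 rose in P2, and 3 rose and 2 fell in P3 (median 0.05), led by Mocs3 (1.22 ± 0.13), which activates Urm1 and is an enzyme of tRNA modification, and Atg10 (−0.83 ± 0.13) and Atg7 (0.74 ± 0.13), which conjugate the modifiers of autophagy. Of 6 measured modifiers, Ufm1 rose in P3 (0.88 ± 0.15, adjusted p = 0.00185) and Isg15 fell, and none was called in P2. Counts of all lists are to be read beside the 15.8% of probe sets that were higher and the 13.4% that were lower in P3 than in Fed, and the 5.13% and 4.15% in P2.

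**Figure D4:**
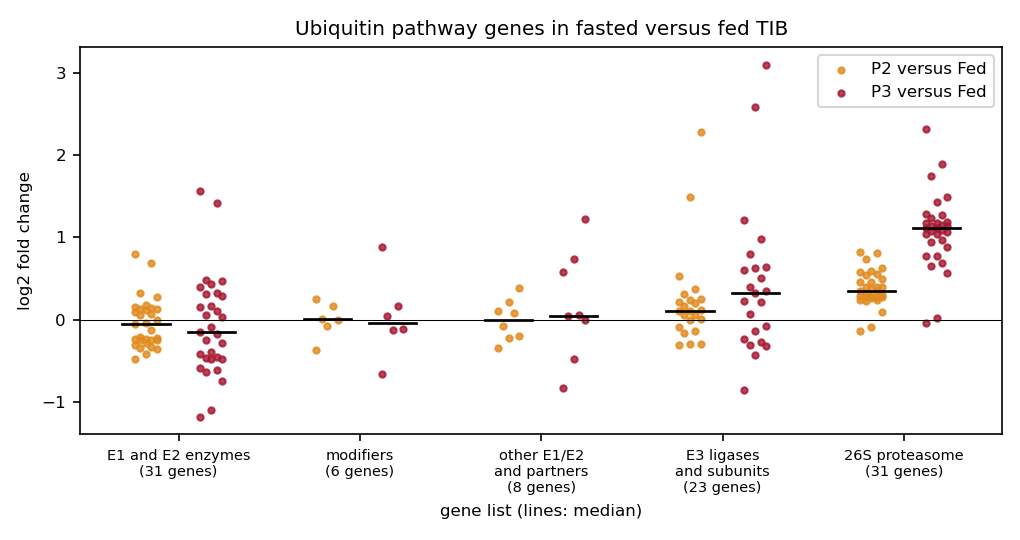
Log2 fold changes of P2 and of P3 versus Fed for the E1 and E2 enzymes and 4 lists of the ubiquitin pathway, with 1 point per gene and medians as lines. The 31 E1 and E2 enzymes spread to both sides of 0, with a median of −0.15 in P3, and the 31 proteasome subunits lie almost wholly above 0, with a median of 1.11.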

How the data were processed

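Total RNA of TIB from 9 rats, 3 per group, was hybridized to Affymetrix Rat Gene 1.0 ST arrays. The authors summarized the probes by RMA with a sketch quantile normalization and a median polish (GCOS 1.4, Expression Console 1.1), and the deposited values, log2 intensities per probe set, were used as they are. The genome build was not given in the sources used here. Since the quantile normalization brought the probes of all arrays towards one distribution before they were summarized, a change shared by most genes cannot be seen. The deposited values per probe set are not on exactly one distribution, and their array medians ran from 5.80 to 5.90.

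Of 29215 probe sets 15316 had 1 symbol, 317 several and 13582 none, by GEO's platform annotation brought to current names. A model of group means over the 9 arrays was fitted with limma 3.58.1 (lmFit, eBayes, 2.87 prior degrees of freedom) in R 4.3.3, and the fit was tested on simulated data. Members, lists, alternatives and rules were chosen with earlier results of these data known. By the rule for named genes, every member has a value, members called against Fed with a log2 fold change of at least 0.5 in size have their values by rat, and other lists have up to 4 of their most changed calls. Related enzymes were compared by their difference within each rat, with a standard error from the rats of the groups compared and without limma. The alternatives were one more quantile normalization, centring on array medians, only probe sets with a mean of at least 5, 1 probe set per gene, averaged probe sets of a gene, robust moderation with a trend, array weights, only the groups compared, the replicate block, stricter thresholds, the methods' ANOVA and Tukey test and leaving out each rat. A further alternative was an ANOVA with Benjamini-Hochberg adjustment, called at an adjusted p under 0.05 together with a Tukey p under 0.05. Plots used Python 3.11.15 with matplotlib 3.10.9. The number of arrays limits the precision.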

Additional observations from a re-analysis of the deposited data

How the results depend on the processing

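Precision is limited by 3 arrays per group, and a member with no call was not shown to be unchanged. Of 31 members, 7 were called in P2 against Fed, 19 in P3 against Fed and 9 in P3 against P2, and 18 passed the F test. With only the groups compared, 3 were called in P2 against Fed. In the same order of comparisons, calls of at least 1.5-fold numbered 2, 8 and 5, and the methods' ANOVA and Tukey test at 0.001 left 2, 5 and 2, while an adjusted p under 0.01 left 2 in P2 against Fed. Leaving out 1 rat gave 2 to 9, 14 to 21 and 6 to 10 calls and 10 to 21 past the F test, and 2, 14 and 6 of the members called kept their call in all 9 leave-outs. One more quantile normalization ended 7 single calls, in P2 against Fed of Ube2g1 (adjusted p = 0.0739) and Ube2q1 (0.0554), in P3 against Fed of Ube2j2 (0.0964) and Ube2z (0.0681), and in P3 against P2 of Uba7 (0.0592), Ube2l3 (0.125) and Ube2z (0.0581). Calls were also lost under the ANOVA with Benjamini-Hochberg adjustment and a Tukey p under 0.05. These were Cdc34, Ube2l6, Ube2e1, Ube2e2, Ube2j2, Ube2v1 and Ube2z in P3 against Fed, and Ube2z in P3 against P2. Alternatives other than leave-outs added a call for Uba1, Ube2a, Ube2e1 and Ube2e2, as well as for Uba3 in P3 against Fed (one more quantile normalization, 0.0436) and Ube2j2 in P3 against P2 (array weights, 0.0432). The ANOVA with Benjamini-Hochberg adjustment and a Tukey p under 0.05 also added calls for Ube2d2, Ube2d3 and Ube2l3 in P2 against Fed. It added a call for Ube2k in P3 against Fed, and for Ube2d2 and Ube2k in P3 against P2. No call turned its direction under an alternative that was run. The causes were not tested, beyond the fewer arrays and stricter thresholds of some alternatives.

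With the replicate number as a block, 3, 18 and 7 members were called and 14 passed the F test. The numbers were not taken to pair the rats, since deviations of same-numbered rats from their group means correlated at −0.243 to 0.123 and 3 of 9 arrays matched best with their own number.

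In 19 cases the sign of a log2 fold change turned, all for members with no call. With one more quantile normalization P3 against Fed was −0.025 for Ube2l3 and −0.052 for Ube2s, and P3 against P2 was −0.0069 for Uba3 and −0.036 for Ube2w, which array weights gave as −0.011. Over the leave-outs, P2 against Fed ran from −0.0089 to 0.39 for Uba6, from −0.14 to 0.021 for Ube2e1, from −0.24 to 0.075 for Ube2e2, from −0.0096 to 0.23 for Ube2s and from −0.077 to 0.13 for Ube2z. P3 against Fed ran from −0.055 to 0.14 for Ube2s. P3 against P2 ran from −0.31 to 0.027 for Ube2a, from −0.010 to 0.10 for Ube2b, from −0.21 to 0.039 for Ube2s, from −0.027 to 0.054 for Ube2v2 and from −0.030 to 0.055 for Ube2w.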
